A study of Mus musculus with 10 samples.

Results

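The genes described here encode 10 endocytic and lectin-domain receptors of lymphatic endothelium. They are Lyve1, Stab1, Stab2, Mrc1, Clec14a, Clec1a, Clec4d, Cd93, Thbd and Scarf1, and they were taken by symbol from a deposited table of 16251 genes. All 10 had a row and passed the filter on low counts, which left 12161 genes for the test. The lowest count of any of them in any library was 61. Cultured mouse primary lymphatic endothelial cells (LECs), which form the inner wall of lymph vessels, gave 10 poly(A) RNA libraries, made 48 h after transfection. A first set of 5, with the label Vegfr2 siRNA, came from cells given 50 nM of a small interfering RNA against Vegfr2, the VEGF receptor encoded by Kdr. The other 5 were labelled control and carry the same treatment tag, siRNA knockdown. The labels do not say whether control cells received another siRNA, which siRNA sequence was used, which mice or strain the cells came from, or whether replicates were separate cultures. Each p-value thus reflects only how far these samples spread, possibly for technical reasons, and the cells are a culture model outside the vessel.

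Scavenger receptors bind modified lipoproteins, matrix fragments and dying cells, and carry them into the cell through clathrin-coated pits. C-type lectin receptors share a fold that in some members binds sugars with the help of calcium, and a related fold, the Link domain, binds hyaluronan, the long sugar polymer of the matrix. In lymphatic vessels and liver and lymph node sinuses such receptors clear hyaluronan and glycoproteins from tissue fluid. Lyve1 is widely used as a marker of lymphatic vessels, and several of these receptors are also made by macrophages.

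RefSeq promoter windows on GRCm38.p6 were on hand for 5 of the 10 members. They run from 250 bases before to 50 bases after the annotated transcription start, 5′ to 3′ on the gene's strand. For Stab1 and Stab2 the start used lies inside the gene span given below, so their windows reach less far beyond that span. The 5 windows are shown because they were the ones on hand, and were not picked by response. They cover the paralogs Stab1 and Stab2, which fell by different amounts, Mrc1 and Clec14a, which fell by nearly the same amount, and Clec4d, which rose. Capitals mark letters searched for on both strands, CNGGAAG (an ETS factor word), TGANTCA (AP-1), CACCC (Kruppel-like factors) and GTAAACA (forkhead factors), where the 2 overlapping CACCC matches in Stab1 merge into 1 run.
Stab1 (chr14:31168592-31168891, minus strand): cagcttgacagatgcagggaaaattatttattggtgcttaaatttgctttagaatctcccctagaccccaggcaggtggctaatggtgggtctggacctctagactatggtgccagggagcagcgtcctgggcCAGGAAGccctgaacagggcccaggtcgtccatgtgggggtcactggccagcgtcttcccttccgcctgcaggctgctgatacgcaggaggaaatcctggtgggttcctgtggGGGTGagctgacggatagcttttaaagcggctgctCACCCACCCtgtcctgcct
Stab2 (chr10:87007893-87008192, minus strand): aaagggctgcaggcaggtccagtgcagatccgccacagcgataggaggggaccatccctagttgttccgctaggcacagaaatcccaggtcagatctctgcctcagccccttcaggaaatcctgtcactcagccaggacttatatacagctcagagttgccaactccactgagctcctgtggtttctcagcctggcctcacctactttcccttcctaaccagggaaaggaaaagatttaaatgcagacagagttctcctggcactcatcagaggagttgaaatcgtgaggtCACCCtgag
Mrc1 (chr2:14229164-14229463, plus strand): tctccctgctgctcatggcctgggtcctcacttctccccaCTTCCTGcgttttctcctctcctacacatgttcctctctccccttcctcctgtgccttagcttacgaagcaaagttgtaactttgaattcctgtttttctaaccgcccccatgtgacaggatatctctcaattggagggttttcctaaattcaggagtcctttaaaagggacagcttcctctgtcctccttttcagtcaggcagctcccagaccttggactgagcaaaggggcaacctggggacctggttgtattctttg
Clec14a (chr12:58269209-58269508, minus strand): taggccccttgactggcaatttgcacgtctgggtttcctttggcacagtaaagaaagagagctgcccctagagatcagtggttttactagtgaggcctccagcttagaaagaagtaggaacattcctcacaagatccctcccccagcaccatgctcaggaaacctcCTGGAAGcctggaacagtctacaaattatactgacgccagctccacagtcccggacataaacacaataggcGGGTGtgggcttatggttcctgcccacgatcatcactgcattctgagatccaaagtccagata
Clec4d (chr6:123261857-123262156, plus strand): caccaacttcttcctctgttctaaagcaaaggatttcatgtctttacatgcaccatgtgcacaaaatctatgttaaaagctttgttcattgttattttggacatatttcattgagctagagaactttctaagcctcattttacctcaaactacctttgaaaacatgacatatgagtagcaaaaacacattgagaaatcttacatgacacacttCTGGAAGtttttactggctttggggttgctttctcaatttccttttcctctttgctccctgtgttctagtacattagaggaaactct

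The ETS word was found once each in the windows of Stab1, Mrc1, Clec14a and Clec4d and not in that of Stab2. It occurs in 31.9% of the 32851 RefSeq windows of this length. The CACCC word had 3 matches in Stab1, 1 in Stab2 and 1 in Clec14a, and is in 57.5% of all windows. The AP-1 word (7.81% of windows) and the forkhead word (3.65%) had no match in the 5 windows. A match is a run of letters and not a measured binding site.

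The siRNA libraries matched their label. Kdr (chromosome 5) stood at 1323 ± 66.3 CPM in control libraries (TMM-scaled counts relative to library size) and at 186 ± 14.8 CPM in siRNA libraries (SD, n = 5 each), and totals ran from 17946483 to 18239260 estimated counts. Of the 10 fixed markers of lymphatic endothelium all had values and passed the filter, and Prox1, whose product sets lymphatic identity, measured 487 ± 17.1 CPM in control and 405 ± 12.2 CPM in siRNA libraries (SD, n = 5). In that marker list 9 genes fell and 1 rose, where 71.3% of all tested genes were called (35.2% lower and 36.1% higher). The falls included Itga9 (−1.07), Flt4 (−1.06), Nrp2 (−0.89), Mmrn1 (−0.63), Prox1 (−0.26) and Nr2f2 (−0.24 on the log2 scale), and Pdpn rose (0.81). The list had a summed level of 12870.2 to 14389 CPM in control and 7829 to 8702 CPM in siRNA libraries. Of 5 genes of endothelium in general, 4 fell (Tie1 by 0.66, Egfl7 by 0.52, Erg by 0.48 and Pecam1 by 0.21 on the log2 scale) and Cdh5 was not called, with sums of 4877 to 5086 CPM in control and 3897 to 4078 CPM in siRNA libraries. In 2 alternative settings Cdh5 was called lower. These were upper-quartile scaling (−0.0575, adjusted p = 0.0189 in edgeR) and keeping genes with a mean from 5 CPM up (−0.0494, adjusted p = 0.0435 in edgeR). Of 7 tested genes of blood endothelium 3 fell, Plvap (−1.54), Nrp1 (−0.81) and Emcn (−0.21), and 4 were not called, with sums of 1218 to 1242 CPM and 917 to 955 CPM. In cultured cells measured in bulk, fewer cells that make a transcript and less RNA in each cell cannot be told apart. Of 20 macrophage and monocyte markers, 12 had a value and 2 passed the filter, both lower after the siRNA, and the list summed to 126 to 147 CPM in control and 94.9 to 106 CPM in siRNA libraries. Nearly all of that sum came from Cd14 and Cd68. The highest count in any library was 3 for Csf1r, 1 each for Spi1, Itgam, Aif1, Fcgr1, Cx3cr1, C1qc, S100a8 and Csf3r, and 16 for Fcgr3, so these were at or near 0. Of 12 fibroblast and mural genes, 6 passed, with 3 lower and 1 higher, and sums of 37.7 to 45.2 CPM against 25.9 to 28.5 CPM. Of 6 epithelial genes 4 had a value and Krt18 alone passed, and the list summed to 1.22 to 2.46 CPM in control and 7.68 to 8.73 CPM in siRNA libraries. The part of these genes in the results below was not tested.

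After the siRNA, 8 of the 10 receptor genes fell, Clec4d rose and Scarf1 was not called. By edgeR's quasi-likelihood test with Benjamini-Hochberg adjustment over all genes, 71.3% of the 12161 tested genes were called, 35.2% as lower and 36.1% as higher, so a call in itself is common in this comparison. The same 9 receptor genes had no overlap between the libraries of the groups, which held for 57.0% of tested genes (28.2% with siRNA lower and 28.8% with siRNA higher). The median log2 fold change was −0.48 over the 10 receptors and −0.0019 over all tested genes. Asked for a fold of more than 1.5 (edgeR's glmTreat), 4 receptors were lower and 1 higher, where 8.56% of tested genes passed, 4.88% lower and 3.68% higher. The fold changes fell into 3 sets beside Scarf1. Stab2, Clec1a, Clec14a and Mrc1 stood at 32.1% to 46.9% of their control level, Thbd, Cd93, Stab1 and Lyve1 at 69.8% to 84.7%, and Clec4d at 382%, with Scarf1 at 99.0%.

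**Figure D1:**
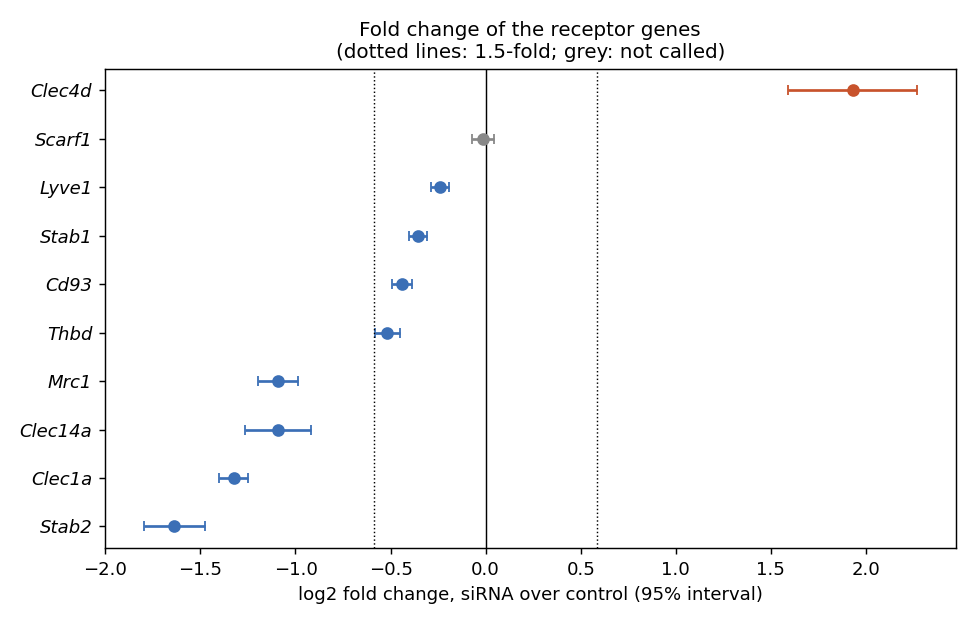
Log2 fold change (siRNA over control, horizontal axis) of each receptor gene with its 95% interval from edgeR, ordered from the largest fall at the bottom (Stab2, −1.64) to the rise of Clec4d (1.93) at the top. Dotted lines mark 1.5-fold, and the interval of Scarf1, in grey, spans 0.

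Among the members, those whose products carry a Link domain, Lyve1, Stab1 and Stab2, fell to very different extents. Lyve1, the membrane receptor that lets immune cells dock on lymphatic endothelium (Entrez gene 114332, GRCm38.p6 chromosome 7, 110850607 to 110862953), was at 5153, 5027, 5063, 5115 and 5236 CPM in control replicates 1 to 5 and at 4412, 4443, 4412, 4181 and 4238 CPM in siRNA replicates 1 to 5. Every siRNA library lay below every control library, yet the siRNA level was still 84.7% ± 2.32 of control (SD, n = 5; log2 fold change −0.24, SE 0.023, adjusted p = 1.86e-12 in edgeR). Lyve1 made up 0.501% to 0.520% of all counts in a control library and 0.423% to 0.444% in an siRNA library.

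Stab1 and Stab2 encode the stabilins, large receptors built of EGF-like, fasciclin and Link domains. Stab1 clears the matrix protein SPARC and modified lipoproteins, and Stab2 is the main clearance receptor for hyaluronan in sinusoidal endothelium. Stab1 (Entrez gene 192187, chromosome 14, 31139017 to 31168651) was at 2046, 2190.2, 2031, 2039 and 2165 CPM in the control and 1696, 1610.1, 1612, 1646 and 1618 CPM in the siRNA libraries. The groups were apart, with siRNA libraries at 78.1% ± 1.74 of control (SD, n = 5; log2 fold change −0.36, adjusted p = 5.46e-17 in edgeR). Stab2 (Entrez gene 192188, chromosome 10, 86841194 to 87008038) was far less abundant, at 15.7, 18.5, 15.6, 14.2 and 15.9 CPM in the control set and 5.20, 5.32, 5.38, 4.99 and 4.73 CPM in the siRNA set. Its siRNA level was 32.1% ± 1.66 of control (SD, n = 5), the largest relative fall of the 10 genes, or −1.64 as log2 fold change (SE 0.080, adjusted p = 4.96e-22 in edgeR). Control replicate 2 was the highest for Stab2, the siRNA libraries were close together, and the groups did not overlap. Of merged exon bases, 1.09% in Stab1 and 1.61% in Stab2 are shared with a gene on the opposite strand. How many reads came from those genes was not tested.

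Mrc1 encodes the mannose receptor, which takes up glycoproteins that end in mannose (Entrez gene 17533, chromosome 2, 14229414 to 14332023). It was at 72.9, 69.9, 70.6, 69.0 and 80.0 CPM in the control set and 37.9, 33.7, 35.4, 33.1 and 29.9 CPM in the siRNA set. Control replicate 5 was the highest and siRNA replicate 5 the lowest, and the groups did not overlap. The siRNA level was 46.9% ± 4.07 of control (SD, n = 5; log2 fold change −1.09, SE 0.050, adjusted p = 4.58e-15 in edgeR). Scarf1, a receptor of endothelial cells for modified lipoprotein and apoptotic cells (Entrez gene 380713, chromosome 11, 75513489 to 75526582), was at 119, 124, 117, 121 and 119 CPM in the control set and 125, 119, 114, 117 and 119.6 CPM in the siRNA set. The groups overlapped, with siRNA replicate 1 the highest and siRNA replicate 3 the lowest of all 10, and the log2 fold change of −0.01 (adjusted p = 0.657 in edgeR) had a 95% interval from −0.07 to 0.04. Without siRNA replicate 3 it was 0.00185 (adjusted p = 0.958 in edgeR).

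The group XIV lectins Clec14a, Cd93 and Thbd, which are single-pass endothelial proteins with a C-type lectin-like domain above EGF-like repeats, all fell. Clec14a, a receptor of vessel sprouting (Entrez gene 66864, chromosome 12, 58264720 to 58269258), was at 11.1, 11.1, 10.3, 11.6 and 10.7 CPM in the control set and 5.75, 5.65, 5.32, 4.005 and 4.95 CPM in the siRNA set. These low levels rest on 73 to 210 counts in a library, with siRNA replicate 4 the lowest, and the siRNA level was 46.9% ± 6.44 of control (SD, n = 5; log2 fold change −1.09, SE 0.086, adjusted p = 4.36e-15 in edgeR). Cd93, which like Clec14a binds the matrix protein multimerin 2 (Entrez gene 17064, chromosome 2, 148436651 to 148443535), was at 154, 148, 149, 154 and 148 CPM in the control set and 109.8, 114, 112, 109 and 110.1 CPM in the siRNA set. The libraries of each group were close together and the groups apart, and the siRNA level was 73.8% ± 1.41 of control (SD, n = 5; log2 fold change −0.44, adjusted p = 9.86e-19 in edgeR). Thbd encodes thrombomodulin, which binds thrombin and turns it toward activating the anticoagulant protein C (Entrez gene 21824, chromosome 2, 148404471 to 148408188). It was at 90.1, 92.0, 91.8, 89.3 and 93.3 CPM in the control set and 63.4, 65.6, 68.1, 61.5 and 60.1 CPM in the siRNA set. The groups were apart, with the siRNA level at 69.8% ± 3.48 of control (SD, n = 5; log2 fold change −0.52, adjusted p = 3.46e-18 in edgeR). Cd93 and Thbd lie 28.5 kb apart on the same strand.

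Clec1a and Clec4d, small lectin receptors of the chromosome 6 gene clusters that hold natural killer and myeloid lectins, moved in opposite directions. Clec1a, a lectin of endothelial and myeloid cells that recognises fungal melanin (Entrez gene 243653, 129426684 to 129452000), was at 87.9, 81.5, 83.9, 81.2 and 86.5 CPM in the control set and 34.2, 34.0, 34.6, 30.5 and 34.6 CPM in the siRNA set. In siRNA replicate 4 it was lower than in the other four, which were nearly equal. The siRNA level was 39.9% ± 2.08 of control (SD, n = 5; log2 fold change −1.33, SE 0.037, adjusted p = 2.6e-30 in edgeR). Clec4d, known from myeloid cells where it pairs with the glycolipid receptor encoded by Clec4e (Entrez gene 17474, 123262107 to 123275268), was at 4.81, 3.39, 4.72, 6.57 and 4.09 CPM in the control set and 16.1, 15.9, 16.6, 20.5 and 21.0 CPM in the siRNA set. It had 61 to 119 counts in a control library and 289 to 381 in an siRNA library. Even the highest control, replicate 4, lay below the lowest siRNA library, and the siRNA level was 382% ± 53.2 of control (SD, n = 5; log2 fold change 1.93, SE 0.152, adjusted p = 3.8e-07 in edgeR). Its partner Clec4e had a total of 3 counts in control and 4 in siRNA libraries, and Clec4n had 0 and 1.

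**Figure D2:**
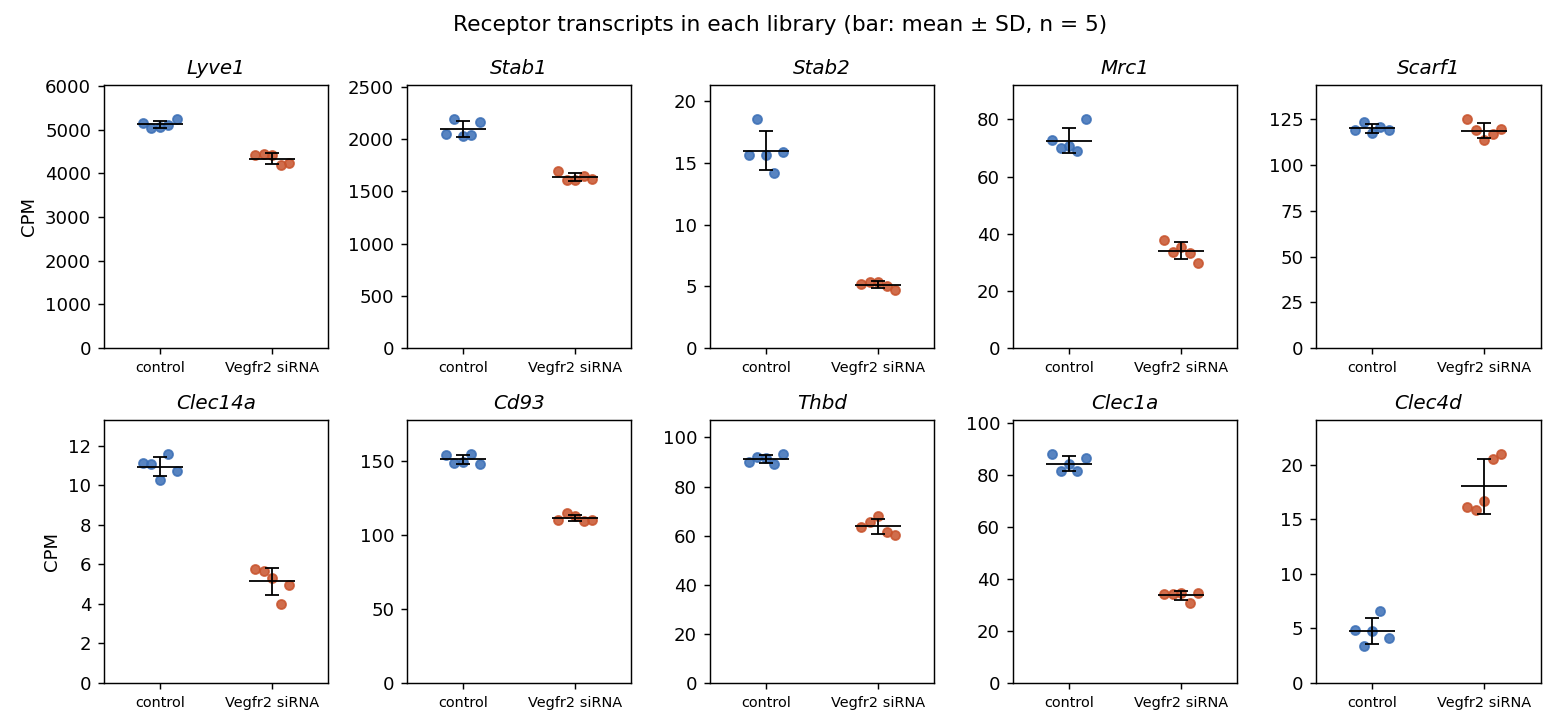
CPM (vertical axes, each from 0) of the 10 receptor genes in the 5 control and 5 Vegfr2 siRNA libraries, 1 point a library in the order of replicate numbers, with mean and SD as bars. Points of the groups are apart in every panel but that of Scarf1, and Clec4d alone is higher after the siRNA.

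Per length, the receptors spanned a wide range, with Lyve1 far above the rest. Levels between genes are given as CPM per kilobase of merged annotated exons. In control cells Lyve1 stood at 1754 ± 27.9 CPM per kb, rank 2 of 11993 tested genes with a length, and it held rank 2 in siRNA cells at 1486 ± 40.7 CPM per kb (SD, n = 5). Stab1 followed at 204 ± 7.47 in control and 159 ± 3.54 CPM per kb in siRNA cells. Together they gave 84.3% (Lyve1) and 9.78% (Stab1) of the summed control level of the 10 receptors per length, and 85.2% and 9.12% after the siRNA. The sum is therefore almost wholly set by the 2 that fell least of the 8 that fell.

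Next in control cells came Scarf1 (41.6 CPM per kb), Thbd (24.5), Cd93 (22.6), Clec1a (16.3) and Mrc1 (11.4). The low end was formed by Clec4d (2.95), Clec14a (2.397) and Stab2 (1.82 CPM per kb). Neighbours in this order did not overlap between control libraries except Clec4d and Clec14a. Thbd and Cd93 were close, with a ratio of 1.09. Using the longest transcript as length kept the order and moved Stab1 to 262 CPM per kb. In siRNA cells Clec4d stood at 11.3 ± 1.57 CPM per kb (SD, n = 5), above Clec1a at 6.49 and Mrc1 at 5.34. Its rank went from 8946 to 4687 of the 11993 genes, while Mrc1 went from 4561 to 7237 and Clec1a from 3385 to 6615.

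**Figure D3:**
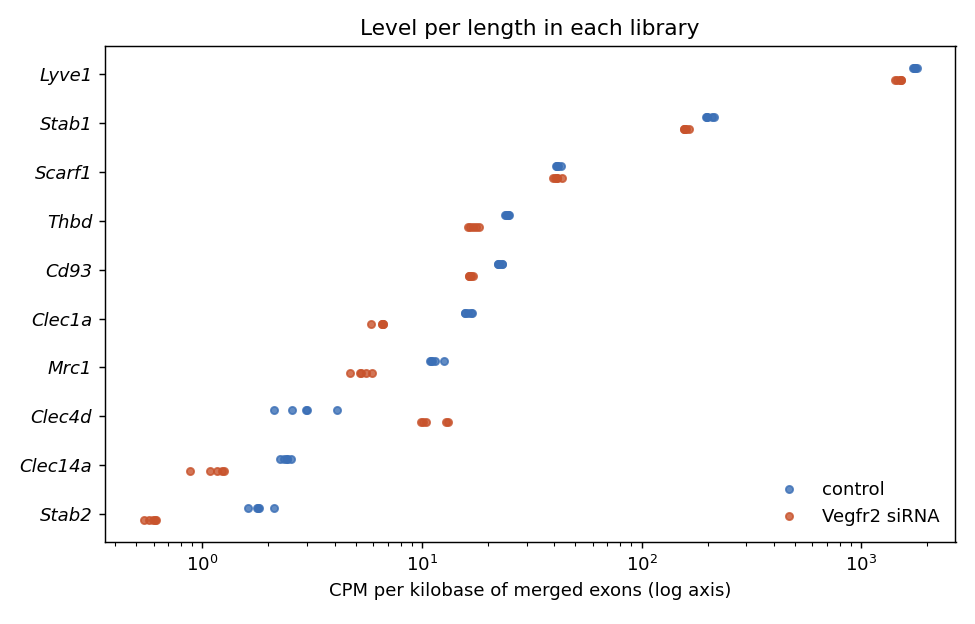
CPM per kilobase of merged exons (log axis) of each receptor gene in the 5 control and 5 Vegfr2 siRNA libraries, 1 point a library, ordered by control level. Lyve1 is at the top near 1754 in control cells, and Clec4d moves from 2.95 to 11.3 CPM per kb, past Mrc1 and Clec1a.

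Whether related receptors shifted relative to each other was tested on the ratio of their counts within each library, which does not depend on library scaling. For 10 fixed pairs an exact two-sided permutation test that enumerates every way to assign the libraries was used, adjusted by Benjamini-Hochberg over the pairs. The pairs were chosen with earlier results of these data known, and the smallest p possible is 0.00794. The 2 stabilins shifted apart. The log2 ratio of Stab1 to Stab2 counts was 7.04 ± 0.103 in control and 8.31 ± 0.082 in siRNA libraries (SD, n = 5 each), a rise of 1.28 (exact permutation p = 0.00794, adjusted p = 0.00992). For Lyve1 over Stab2 the difference was 1.39, and for Mrc1 over Stab1 it was −0.74, with the same exact p and adjusted p and no overlap of libraries.

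Within group XIV, Clec14a fell relative to Cd93 by 0.66 and relative to Thbd by 0.58 on the log2 scale (exact permutation p = 0.00794, adjusted p = 0.00992 for each). Cd93 and Thbd, the neighbours on chromosome 2, kept closer together. Their log2 ratio was 0.72 ± 0.054 in control and 0.80 ± 0.056 in siRNA libraries (SD, n = 5), a difference of 0.08 that did not pass (exact permutation p = 0.0476, adjusted p = 0.0529). That adjusted p became 0.0441 without control replicate 4 and 0.0353 without siRNA replicate 3. Clec1a over Clec4d had the largest difference of the pairs, −3.28. Since Clec1a fell and Clec4d rose without overlap of libraries, this ratio had to reach the smallest p possible and adds no test of its own. Against relatives outside the 10 genes, Mrc1 fell by 1.23 relative to Mrc2, which encodes a collagen-binding member of the same family and has 126 counts summed over the control and 140 over the siRNA group. Both of these differences had an exact permutation p of 0.00794 (adjusted p = 0.00992). Scarf1 over Scarf2, another scavenger receptor of the same type, differed by −0.13 (exact permutation p = 0.230, adjusted p = 0.230).

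**Figure D4:**
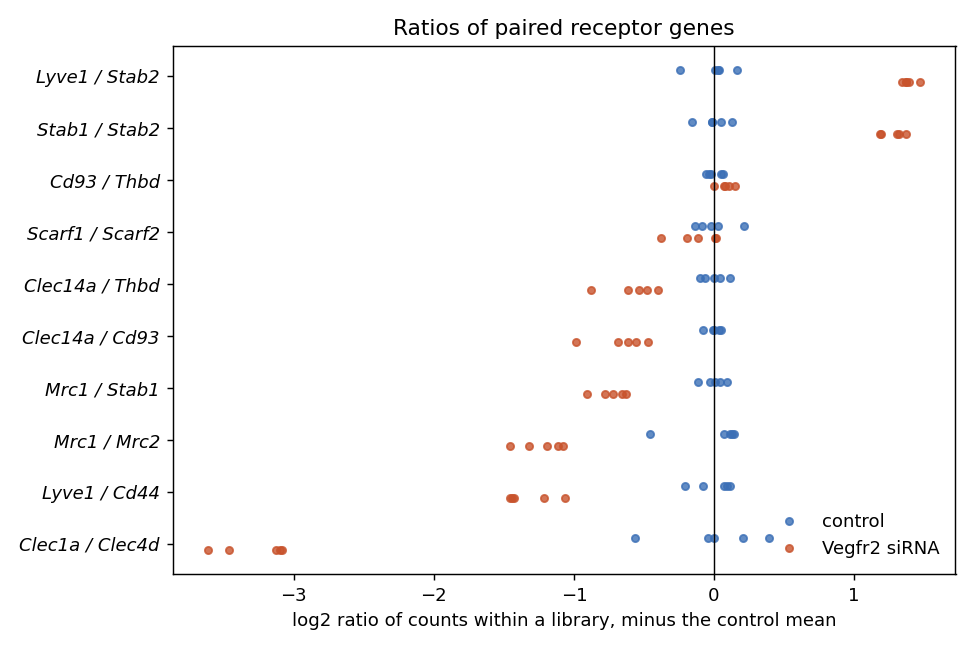
Log2 ratio of the counts of 2 genes within a library, minus the mean of the control libraries (horizontal axis), for the 10 pairs, 1 point a library. Control and siRNA points are apart for 8 pairs and overlap for Cd93 over Thbd and Scarf1 over Scarf2.

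Other genes of hyaluronan handling moved both ways. A list of 15 names, of which Tmem2 is an older name of Cemip2, had 9 tested genes, with 4 higher, 4 lower and 1 not called (median log2 fold change 0.06, against 71.3% of all tested genes called and a median of −0.0019). Cd44, the hyaluronan receptor of many cell types, was at 5.87, 4.73, 5.28, 4.75 and 4.77 CPM in the control set and 11.8, 9.21, 10.2, 11.4 and 11.4 CPM in the siRNA set. It rose by 1.08 on the log2 scale (adjusted p = 1.01e-14 in edgeR), with all siRNA libraries above all controls. The log2 ratio of Lyve1 to Cd44 counts thus went from 9.97 ± 0.137 to 8.65 ± 0.173 (SD, n = 5; exact permutation p = 0.00794, adjusted p = 0.00992). That p was fixed by the opposite moves of Lyve1 and Cd44 without overlap of libraries. Layn, which encodes layilin, a lectin that binds hyaluronan and whose reads were divided between genes in all 10 libraries, fell from 40.9 to 20.9 CPM (log2 fold change −0.97). The synthase gene Has1 (0.36, with reads divided between genes in all 10 libraries), the hyaluronidase-like gene Cemip2 (0.20) and Ugdh, whose product makes a hyaluronan precursor (0.18), rose. Hyal1 (−0.77) and Hmmr (−0.47) fell. Of Hyal1's exon bases 51.9% are shared with other genes and its reads were divided in 9 libraries, so its value is uncertain.

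Of 21 fixed ligands, partners and sheddases of the receptors, 19 were tested, with 5 higher, 8 lower and 6 not called (68.4% called, near the 71.3% of all tested genes, with a median log2 fold change of −0.05). Mmrn2, the multimerin 2 ligand of Cd93 and Clec14a, was at 101, 103, 93.8, 99.8 and 107 CPM in the control set and 66.7, 61.8, 65.0, 59.5 and 55.9 CPM in the siRNA set. It fell by 0.71 on the log2 scale (adjusted p = 4.2e-14 in edgeR), and all siRNA libraries lay below all controls. Igfbp7, another Cd93 ligand (−1.11), Sparc, the Stab1 ligand (−1.03), and the protease gene Adam10 (−0.39) also fell. Of Igfbp7 exon bases 7.03% are shared with a gene on the opposite strand. Gipc1, an adaptor that binds the tail of Cd93, rose by 0.60, and Mmp14, a membrane protease that can shed Lyve1, by 0.37. Around Thbd, the thrombin receptor gene F2r was at 86.1, 76.9, 82.6, 86.7 and 83.2 CPM in the control set and 207, 210.2, 201, 193 and 199 CPM in the siRNA set. F2r rose by 1.28 on the log2 scale (adjusted p = 6.89e-33 in edgeR), whereas Thbd fell. Procr, the endothelial protein C receptor gene, had a mean of 43.8 CPM without and 43.0 CPM with the siRNA (log2 fold change −0.03, adjusted p = 0.572 in edgeR).

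Genes of the wider receptor families were called at shares to be read against the 71.3% of all tested genes (35.2% lower and 36.1% higher). Of 20 other scavenger receptors 19 had values and 12 were tested, with 2 higher, 6 lower and 4 not called (66.7% called, below that share, with a median log2 fold change of −0.11). Colec12, a collectin-type scavenger receptor of endothelium (−0.42), Scara3 (−0.74), Cd68 (−0.40), Ager (−0.29) and the lysosomal receptor gene Scarb2 (−0.17) fell. Without siRNA replicate 1 the number higher was 1. Reads of Colec12 were divided between genes in all 10 libraries. The macrophage scavenger receptor genes Msr1 and Cd163 had 11 and 2 counts over all control libraries and were under the filter.

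Of 44 other C-type lectin domain genes 32 had values and 19 were tested, with 6 higher, 11 lower and 2 not called (89.5% called, against 71.3% of all tested genes, of which 35.2% were lower and 36.1% higher, and a median log2 fold change of −0.22). Those that rose included Sele, which encodes E-selectin (1.45), the proteoglycan gene Vcan (1.46) and Chodl (1.54). Pla2r1, a member of the mannose receptor family, fell by 0.59. Of 28 endocytic adaptor and trafficking genes 7 were higher, 15 lower and 6 not called (78.6% called, near the 71.3% of all tested genes, and a median of −0.10). Among these, Ap2a2, a subunit of the AP-2 clathrin adaptor, fell by 0.75, the adaptor genes Dab2 by 0.50 and Numb by 0.39, and the clathrin light chain gene Cltb by 0.50. Ap2b1, another AP-2 subunit, rose by 0.31. Reads were divided between genes in all 10 libraries for Numb and in 5 for Ap2b1. Gulp1, the adaptor that binds the stabilins, had a total of 114 counts in control and 86 in siRNA libraries and was not called (log2 fold change −0.42, adjusted p = 0.0568 in edgeR). Leaving out single libraries moved the log2 fold change of Gulp1 from −0.469 to −0.320. Its adjusted p in edgeR then ran from 0.0464 (without control replicate 4) to 0.184 (without control replicate 1). With upper-quartile scaling it was 0.0466, but with all genes kept and with the replicate block it stayed above 0.05.

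The 4 tested neighbours of Clec1a on chromosome 6 were lower, in a comparison where 35.2% of all tested genes were called lower and 36.1% higher. Within 100 kb of the 10 receptor genes lie 37 other genes with values, a window chosen after the values were seen, and 8 of them were higher, 13 lower, 5 not called and 11 under the filter, beside 71.3% called among all tested genes (Cd93 and Thbd count as neighbours of each other). Next to Clec1a, Clec9a, a lectin receptor best known from dendritic cells, was at 22.8, 24.0, 19.7, 19.3 and 22.5 CPM in the control set and 6.90, 7.40, 8.29, 6.64 and 6.55 CPM in the siRNA set. It lies 1.92 kb from Clec1a and fell by 1.60 on the log2 scale (adjusted p = 1.97e-22 in edgeR). Clec12b (−1.51, from a total of 175 counts in control to 62 in siRNA libraries) and Clec1b (−0.91, from 108 to 58 counts), also named after their values were seen, fell as well, though Clec1b libraries overlapped. On the other side of Clec1a, Clec7a, Olr1 and Tmem52b had at most 15 counts over a group and were not tested, and Gabarapl1 fell by 0.31. Of Clec9a exon bases 5.59% are shared with Clec1b, the RefSeq spans of Clec1a and Clec12b overlap, and the counts of these 4 lectin genes were whole in all 10 libraries, as where no read is divided between genes. Around Lyve1 the tested neighbours Ampd3, Rnf141 and Mrvi1 were not called, with log2 fold changes of 0.06, −0.04 and −0.09.

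**Figure D5:**
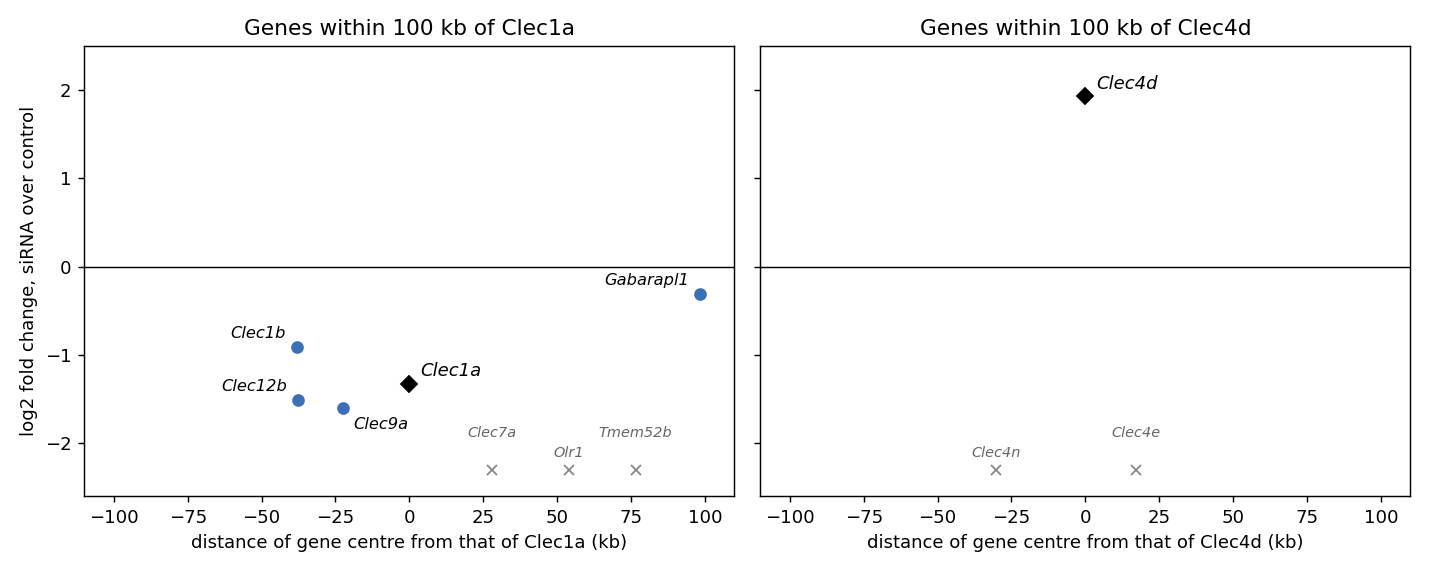
Log2 fold change (siRNA over control, vertical axis) of genes within 100 kb of Clec1a (left) and Clec4d (right) against the distance between gene centres in kb, with the receptor gene as a black diamond. Grey crosses at the bottom are genes under the filter, which have no fold change. Clec9a, Clec12b and Clec1b lie below 0 beside Clec1a, and Clec4d has no tested neighbour.

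The genes with the most similar pattern were found by the root mean square difference, over the 10 libraries, of log2 CPM relative to the control mean, among 10325 tested genes with a mean of at least 5 CPM. For Stab2 these were Clec9a (0.083), Plvap, the diaphragm protein gene of fenestrated endothelium (0.106), and Slc40a1, the iron exporter gene (0.111). Their log2 fold changes were −1.60, −1.54 and −1.67. That these are close to that of Stab2 follows from the measure, which takes in the siRNA libraries. For Clec4d they were Sh2d5 (0.178), Tubb2b, whose reads were divided between genes in all 10 libraries (0.197), and the secreted glycoprotein gene Stc1 (0.219). The larger differences for Clec4d go with its wider spread between control libraries, where it varied by 25.1% (SD over mean), against 9.84% for Stab2.

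In the 3′ UTRs of the receptor genes the 7-base word GTAAAGA was found once, in Thbd. This word was picked earlier on these data for going with lower fold changes. It is present in 1222 of 11590 tested genes, Kdr left out, with a 3′ UTR of at least 50 bases (10.5%, from the transcript with the longest coding sequence), whose median log2 fold change was −0.16, against 0.02 for the others. Genes with and without the word were not matched for 3′ UTR length. The part of the word in the fall of Thbd was not tested.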

How the data were processed

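Poly(A) RNA of 5 control and 5 Vegfr2 siRNA libraries was sequenced. The authors deposited 1 table of estimated counts per gene, not normalized, with 16251 Entrez genes and 1 column a library, per the file headers. The submitters' processing notes name HISAT2 2.2.1, Bowtie2 2.4.5, RSEM 1.3.1 and GRCm38.p6. For annotation and strand setting, the sources used here give nothing, so reads of genes that overlap on opposite strands may not be told apart. RSEM divides reads that fit several genes, and 10.5% to 11.3% of the genes in a library had a value that was not whole.

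Counts were rounded and tested with edgeR 4.0.16 (R 4.3.3; TMM scaling, filterByExpr with a minimum count of 10, robust quasi-likelihood test, Benjamini-Hochberg threshold 0.05 over 12161 genes). CPM are TMM-scaled. Exon lengths came from GENCODE on GRCm38, and names, gene positions and promoters from RefSeq on GRCm38.p6 (16202 identifiers matched). Ratios used Python 3.11.15 and numpy 2.4.6. Totals were nearly equal between libraries, so precision depends on the count of each gene. Libraries of a group differed by more than counting noise (chi-square per degree of freedom 1.50 to 3.47), so each counted as 1 sample. On simulated data of 12161 genes, the test recovered 28% of 1.1-fold, 70% of 1.25-fold, 90% of 1.5-fold and 96% of 2-fold changes, with 8 false calls. In that simulation 50 genes were changed at each fold, the rest were unchanged, and all genes had the same dispersion. In the data 71.3% of tested genes were called, so these shares and the false calls do not carry over to this comparison.

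The members, lists and pairs were chosen with earlier results of these data known. The text names all members, Kdr, the genes of the pairs, from each list up to 6 tested genes with the smallest adjusted p plus Mmrn2, Procr, Cd44 and Gulp1, and for Stab2 and Clec4d the 3 most similar genes. Genes outside that rule are Pdpn, the neighbours within 100 kb and genes under the filter, named after their values were seen. A gene that the rule names is not reported here. Alternatives were other scalings (RLE, upper quartile), DESeq2 1.42.0, limma-voom (limma 3.58.1), keeping all genes, keeping genes with a mean from 5 CPM up, glmTreat at 1.5-fold, a replicate block and leaving out each library.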

Additional observations from a re-analysis of the deposited data

Results flagged for a closer look

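Clec1a in siRNA replicate 4 stood at 30.5 CPM, below the other siRNA libraries by a gap of 0.849 of the group's range. The log2 ratio of Mrc1 to Mrc2 counts in control replicate 4 was 5.22, below the other controls by 0.884 of the range. A gap above 0.71 of the range in a group of 5 was taken as far from the others, and of 40 groups examined chance alone would pass about 1 in 20.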

How the results depend on the processing

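The calls of the 9 receptor genes and their directions held under other scalings, filters, DESeq2, limma-voom and without each library in turn. Asked for more than 1.5-fold, 447 genes were higher and 594 lower, 4 receptors were lower, and Lyve1 (−0.24), Stab1 (−0.36), Cd93 (−0.44) and Thbd (−0.52) had an adjusted p of 1 in edgeR's glmTreat, by construction of that test. Without single libraries Scarf1 ran from −0.0329 to 0.00185, above 0 without siRNA replicate 3, and Procr from −0.0537 to 0.00606, above 0 without siRNA replicate 1, neither called. Without single libraries the difference of Cd93 over Thbd ran from 0.0633 to 0.101 and passed in 2 cases (0.0969 and 0.101).

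Same-numbered libraries did not deviate together (r from −0.0944 to 0.057 over the 5 pairs), and none correlated best with its own number. With the replicate block 4322 genes were higher and 4215 lower, and 1 receptor was higher and 8 lower. For the ratios, sign flips of the 5 same-numbered pairs as the replicate block cannot give an exact p below 0.0625, so none can pass. The adjusted p was 0.0694 for Cd93 over Thbd (0.08), Stab1 over Stab2 (1.28), Lyve1 over Stab2 (1.39), Clec14a over Cd93 (−0.66) and over Thbd (−0.58), Clec1a over Clec4d (−3.28), Lyve1 over Cd44 (−1.32), Mrc1 over Mrc2 (−1.23) and Mrc1 over Stab1 (−0.74). Genes with few counts, such as Mrc2, Gulp1 and Clec1b, are limited by depth.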
